A study of Mus musculus with 6 samples.

Results

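LRRC8 proteins form the volume-regulated anion channel, and 4 of the 13299 protein-coding genes measured in the mouse neocortex encode its subunits: *Lrrc8a*, *Lrrc8b*, *Lrrc8c* and *Lrrc8d*. They were taken from the table by gene name. *Lrrc8d* was selected on its measured values, since its lower level in HuD KO than in control cortex ranked 7 of 13121 genes by the size of the unadjusted p and 17 by log2 difference in this same contrast. The other subunits were chosen as its family, so the contrast of these genes is described with values and intervals, and how many of them pass the fit over all genes is given only as a count beside that of all genes. *Lrrc8e*, the remaining subunit gene, was not analysed here.

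RNA was sequenced from the neocortex of 3 HuD KO (*Elavl4*-/-) male mice and 3 wildtype male littermates, the controls, all adult and of the C57BL/6 background. In the HuD KOs the second exon of *Elavl4* is replaced in every cell by a PGK-Neo cassette, which shifts the reading frame, so the loss is neither restricted to neurons nor to adulthood. HuD, the product of *Elavl4*, is a neuronal RNA-binding protein that binds AU- and U-rich stretches, mostly in 3′-UTRs. The levels are FPKM, fragments scaled by transcript length and by the mapped fragments of the library. Comparing them between genes rests on the scaling by length. The program that gave FPKM is not named, so the length it took for each gene could not be checked. The study left HuD KO replicate 2 out of its comparison as an outlier, and the fitted differences below therefore rest on HuD KO replicates 1 and 3 against the 3 controls unless all 6 libraries are named.

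The volume-regulated anion channel opens when a cell swells and lets chloride and small organic osmolytes leave, so that water follows and the cell shrinks back. LRRC8A is needed in every channel, and it assembles with LRRC8B, LRRC8C, LRRC8D or LRRC8E, which set what the pore passes. Channels that hold LRRC8D pass larger and uncharged or charged organic solutes such as taurine, GABA and platinum drugs, and in the brain the channel is known as a route by which astrocytes release glutamate.

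Transcript models of the members are in GENCODE M21 on mm10, and the gene bounds there are those of the deposited table. *Lrrc8b* (chromosome 5, 105415775 to 105490074), *Lrrc8c* (chromosome 5, 105519388 to 105613018) and *Lrrc8d* (chromosome 5, 105699969 to 105832436) lie one after the other on the plus strand. *Lrrc8a* lies alone on chromosome 2, from 30237715 to 30263790, also on the plus strand. None of them is on chromosome 4, which carries *Elavl4*. The annotation gives *Lrrc8b* 1 transcript, *Lrrc8a* 2, *Lrrc8c* 4 and *Lrrc8d* 10, and only 2 of the *Lrrc8d* transcripts hold a complete coding sequence. The FPKM is 1 value per gene and does not tell these transcripts apart. The antisense gene *Lrrc8dos* overlaps *Lrrc8d*, and no source used here states whether the counting used strand, so reads of this pair may be mixed.

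Because HuD binds AU-rich RNA, the 3′-UTRs of the members were searched for the pentamer ATTTA on the transcript's strand, with overlapping matches counted. In the first 900 bases after the stop codon *Lrrc8b* held 3 pentamers, *Lrrc8c* and *Lrrc8d* 2 each and *Lrrc8a* 1. Of 8471 listed genes with a 3′-UTR of at least that length, 63.6% held at least 1 such pentamer, 37.4% at least as many as *Lrrc8c* and *Lrrc8d*, and 19.8% at least as many as *Lrrc8b*. The 30 bases of each 3′-UTR with the most pentamers, and among these the most T, are shown 5′ to 3′ with the pentamers in capitals, to let the AU-rich stretches of the subunits be compared. A match is only a run of letters and not a site at which binding was measured.
Lrrc8a: ggtATTTAttttttccacttcccatctttt
Lrrc8b: cttaattttatATTTAagttttgaATTTAt
Lrrc8c: ttttttaataaaaATTTAattgtatttttt
Lrrc8d: tttctttcttgaggtgtcctgATTTAtttt
These stretches lie in the 3′-UTRs on the plus strand of mm10, at chr2:30262426-30262455 in *Lrrc8a*, chr5:105489573-105489602 in *Lrrc8b*, chr5:105608920-105608949 in *Lrrc8c* and chr5:105814770-105814799 in *Lrrc8d*. Only the stretch of *Lrrc8b* holds 2 pentamers, and it starts at base 3498 after the stop codon, outside the first 900 bases. The 3′-UTRs searched for these stretches differ in length, from 910 bases in *Lrrc8d* to 3999 in *Lrrc8b* and 4246 in *Lrrc8c*. Per kb of the whole 3′-UTR *Lrrc8d* held 2.20 pentamers, *Lrrc8b* 1.75, *Lrrc8c* 1.41 and *Lrrc8a* 1.20. That of *Lrrc8d* falls almost wholly in the part that *Lrrc8dos* overlaps on the other strand.

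The library labels were checked on *Elavl4*, which had 1.70, 1.07 and 1.52 FPKM in HuD KO replicates 1, 2 and 3, against 34.2, 30.4 and 28.3 FPKM in control replicates 1, 2 and 3. Summed FPKM was close in all libraries, at 216651 to 227439. Excitatory neuron markers summed to 1516 to 2500 FPKM in HuD KOs, highest in replicate 2, and to 934 to 1641 FPKM in controls, lowest in replicate 3. Control replicate 3 also held 284 FPKM of hypothalamic neuropeptides, against at most 4.41 FPKM in the other libraries, 5 of these 7 genes being at 0 in at least 1 library, and choroid plexus markers ranged from 6.13 to 161 FPKM in HuD KOs and from 2.92 to 298 FPKM in controls. Meningeal fibroblast markers summed to 13.1 to 16.8 FPKM in HuD KOs and to 21.5 to 45.8 FPKM in controls, and none of the 7 was at 0. These are bulk libraries, in which fewer cells of a type and less RNA per cell cannot be told apart.

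*Lrrc8d*, the subunit that widens the range of organic solutes, was the member with the largest difference between genotypes. It had 0.695, 1.64 and 0.708 FPKM in HuD KO replicates 1, 2 and 3, against 2.69, 3.27 and 3.14 FPKM in control replicates 1, 2 and 3. The groups did not overlap, and the excluded HuD KO replicate 2 lay between the other HuD KOs and the controls. HuD KO replicates 1 and 3 averaged 0.702 ± 0.00883 FPKM (SD, n = 2) and controls 3.04 ± 0.304 FPKM (SD, n = 3), a ratio of 0.231, and with replicate 2 the HuD KOs averaged 1.02 ± 0.543 FPKM (SD, n = 3), a ratio of 0.335. On the log2(FPKM + 1) scale, which understates changes of low values, the difference was -1.24 (SE 0.11, 95% interval -1.51 to -0.98) over 5 libraries and -1.03 (SE 0.19, 95% interval -1.48 to -0.58) over 6. Within several lists of cell type markers the log2 differences over 5 libraries mostly shared a sign. The interneuron markers were split, with 3 negative and 3 positive, and the choroid plexus markers had 1 negative and 3 positive. Of the microglia markers 5 were negative and 1 positive, with a median of -0.12 over 5 libraries and 0.004 over 6. Over all genes tested, 7276 of 13121 were negative. Negative values were found for 7 of 7 meningeal fibroblast (median -0.41), 7 of 7 astrocyte (median -0.10) and 6 of 6 endothelial markers (median -0.11). The 6 of 6 tested hypothalamic neuropeptides were negative too (median -1.56), but their high values lay in control replicate 3 alone. That library summed to 284 FPKM of them, against 2.91 and 1.85 FPKM in control replicates 1 and 2. Their shared sign thus mainly describes 1 library, and the 6 genes do not count separately. Positive values were found for 7 of 7 oligodendrocyte (median 0.13), 6 of 6 striatal neuron (median 0.51) and 6 of 7 excitatory neuron markers (median 0.30). The sums of the striatal markers overlapped between the groups. They were 140, 81.1 and 47.4 FPKM in HuD KO replicates 1, 2 and 3. In control replicates 1, 2 and 3 they were 43.9, 45.3 and 115 FPKM. Every HuD KO was below every control for 4 of the 7 meningeal markers, against 5.7% of all genes. Over 5 libraries 3.43% of all genes had an unadjusted p below 0.05 in limma. So did 4 of 7 meningeal, 1 of 7 oligodendrocyte and 1 of 7 excitatory neuron markers. For astrocyte markers it was 0 of 7, for endothelial markers 0 of 6, and for the remaining lists also 0. Over 6 libraries it was 4 of 7 meningeal and 1 of 7 astrocyte markers, against 457 of 13114 genes. The astrocyte markers summed to 250 to 285 FPKM in HuD KOs and to 276 to 347 FPKM in controls. The part of these cell types in the *Lrrc8d* result was not tested.

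*Lrrc8c*, a partner of LRRC8A in channels that also pass the immune messenger cGAMP, was slightly lower in HuD KOs. It had 4.50, 3.75 and 4.43 FPKM in HuD KO replicates 1, 2 and 3, against 5.30, 4.81 and 4.89 FPKM in control replicates 1, 2 and 3. The groups did not overlap, but the gap between the highest HuD KO and the lowest control was small next to that of *Lrrc8d*. The log2 difference was -0.13 (SE 0.09, 95% interval -0.35 to 0.08) over 5 libraries and -0.20 (SE 0.11, 95% interval -0.46 to 0.06) over 6, and both intervals include 0.

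*Lrrc8a*, the subunit that every channel needs, overlapped between the genotypes. It had 5.70, 5.53 and 4.56 FPKM in HuD KO replicates 1, 2 and 3, against 4.84, 6.05 and 6.44 FPKM in control replicates 1, 2 and 3. The lowest library was HuD KO replicate 3, and control replicate 1 came next. Its log2 difference was -0.14 (SE 0.15, 95% interval -0.51 to 0.22) over 5 libraries, and this interval leaves room for a change in either direction.

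*Lrrc8b*, whose protein gives little swelling-activated current when it is the only partner of LRRC8A, was the one member with a positive difference. It had 31.7, 24.4 and 32.4 FPKM in HuD KO replicates 1, 2 and 3, against 28.4, 30.6 and 18.3 FPKM in control replicates 1, 2 and 3. The groups overlapped over 6 libraries, and control replicate 3 was far below the rest. The log2 difference of 0.34 (SE 0.22, 95% interval -0.21 to 0.89) over 5 libraries was 0.12 without control replicate 3. That library had the lowest sum of excitatory neuron markers and the highest sums of hypothalamic neuropeptides and choroid plexus markers, as given above, and their part in the *Lrrc8b* values was not tested.

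**Figure D1:**
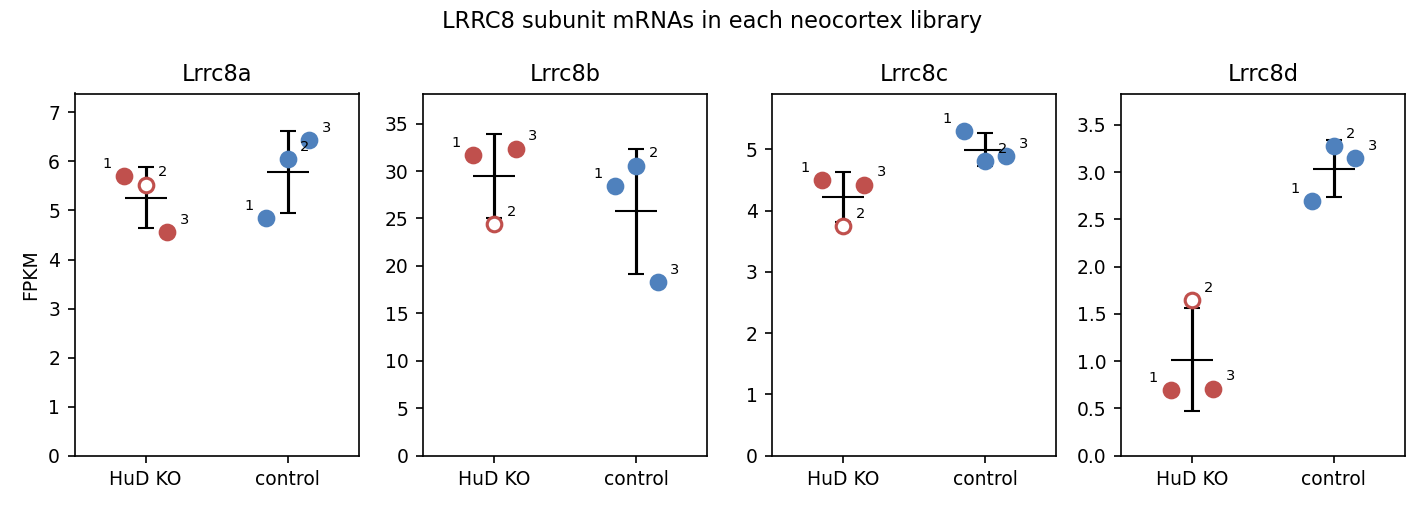
FPKM of each LRRC8 subunit gene (vertical axes, starting at 0 and scaled per gene) in the 3 HuD KO and 3 control libraries, numbered by replicate, with bars for the mean ± SD (n = 3) and an open circle for the excluded HuD KO replicate 2. *Lrrc8d* lies at 0.695 to 1.64 FPKM in HuD KOs and at 2.69 to 3.27 FPKM in controls, while *Lrrc8a* and *Lrrc8b* overlap.

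Read from the fit over all genes (limma on log2(FPKM + 1), Benjamini-Hochberg adjustment), 0 of the 4 members passed an adjusted p of 0.05 over 5 libraries, where 0.0457% of the 13121 genes tested did, and 1 of 4, *Lrrc8d*, had an unadjusted p below 0.05, where 3.43% of all genes did. Over 6 libraries again 0 of the 4 members passed, with 0.0305% of 13114 genes called. There 1 of 4, again *Lrrc8d*, had an unadjusted p below 0.05, as did 457 of the 13114 genes. Every HuD KO library was below every control library for 2 of the 4 members, *Lrrc8c* and *Lrrc8d*, and for 5.7% of all genes. As *Lrrc8d* was selected on this contrast, these counts are a description. All 4 members had passed the low-value filter of a mean of 0.5 FPKM over the fitted libraries.

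The make-up of the subunit mRNAs was led by *Lrrc8b* in every library. Its share of the summed FPKM of the 4 genes was 74.4%, 69.1% and 77.0% in HuD KO replicates 1, 2 and 3, against 68.9%, 68.4% and 55.8% in control replicates 1, 2 and 3. The share of *Lrrc8d* was 1.63%, 4.65% and 1.68% in HuD KO replicates 1, 2 and 3, against 6.53%, 7.32% and 9.60% in control replicates 1, 2 and 3. The smallest share of *Lrrc8d* in a control was thus above the largest in a HuD KO. The summed FPKM of the family overlapped, at 35.3 to 42.6 in HuD KOs and 32.7 to 44.7 in controls.

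Among the 3 less abundant genes, *Lrrc8d* made up 6.38%, 15.0% and 7.31% in HuD KO replicates 1, 2 and 3, against 21.0%, 23.1% and 21.7% in control replicates 1, 2 and 3. The ratio of *Lrrc8a* to *Lrrc8d* mRNA was 8.20, 3.36 and 6.44 in HuD KO replicates 1, 2 and 3, against 1.80, 1.85 and 2.05 in control replicates 1, 2 and 3. The ratio of *Lrrc8a* to *Lrrc8c*, by contrast, overlapped, with a mean of 1.26 ± 0.222 in HuD KOs and 1.16 ± 0.218 in controls (SD, n = 3 each). Shares and ratios of mRNA do not give the make-up of the channels.

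**Figure D2:**
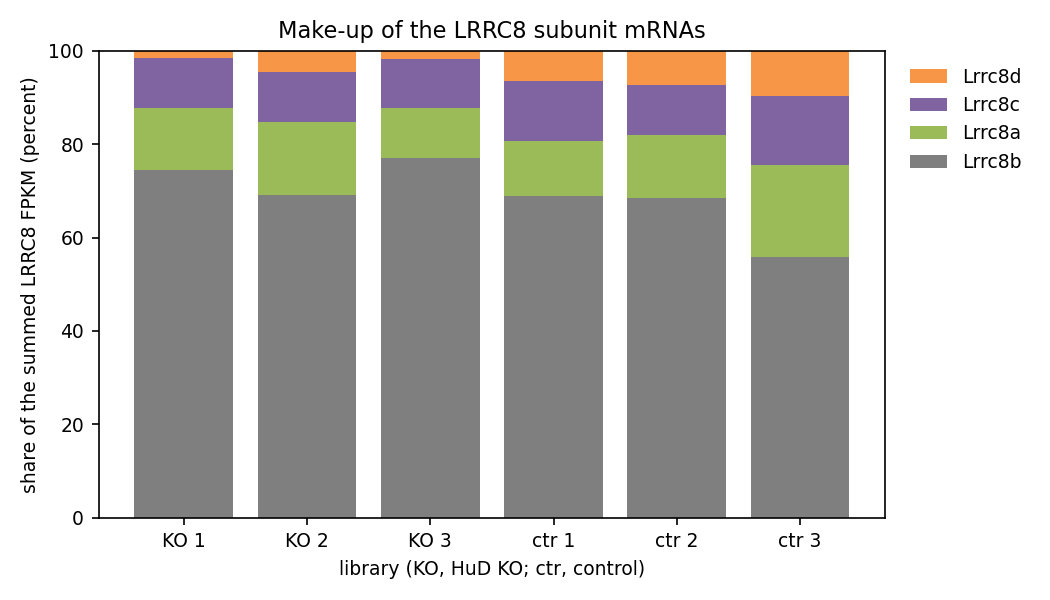
Share of each subunit gene in the summed LRRC8 FPKM (vertical axis, percent) in each library, HuD KOs on the left and controls on the right. *Lrrc8b* fills 55.8% to 77.0% of each bar, and *Lrrc8d* 1.63% to 4.65% in HuD KOs and 6.53% to 9.60% in controls.

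By level, the subunits ran *Lrrc8b*, *Lrrc8a*, *Lrrc8c*, *Lrrc8d*, with means over the 6 libraries of 27.6, 5.52, 4.61 and 2.03 FPKM. *Lrrc8b* was above 88.5% of the listed genes and *Lrrc8d* above 22.0%. *Lrrc8b* exceeded *Lrrc8a* in 6 of 6 libraries, by 2.31 ± 0.45 on the log2 FPKM scale (SD, n = 6). The exact two-sided sign-flip permutation test gave p = 0.0313, the smallest that 6 libraries allow. Its Benjamini-Hochberg adjusted p of 0.0469 over 3 neighbouring pairs also counts *Lrrc8c* with *Lrrc8d*, so no call is made from it. The order of the pairs was itself taken from these libraries. *Lrrc8a* exceeded *Lrrc8c* in 5 of 6 libraries, by 0.26 ± 0.25 on the log2 scale, but the difference did not pass the threshold (SD, n = 6; same exact test, p = 0.0938, adjusted p = 0.0938), *Lrrc8c* being the higher one in control replicate 1. *Lrrc8c* exceeded *Lrrc8d* in 6 of 6 libraries, by 2.69, 1.19 and 2.64 on the log2 scale in HuD KO replicates 1, 2 and 3 and by 0.98, 0.56 and 0.64 in control replicates 1, 2 and 3. No test is given for this pair, because the low *Lrrc8d* values of the HuD KOs had drawn attention to the family.

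Genes next to the chromosome 5 members were compared with them. The nearest listed gene above *Lrrc8d* is *Zfp326*, a zinc finger gene that starts 44.1 kb past its end. *Zfp326* had 3.53, 3.26 and 3.80 FPKM in HuD KO replicates 1, 2 and 3, against 4.57, 4.47 and 4.85 FPKM in control replicates 1, 2 and 3. Its groups did not overlap either, but the log2 difference of -0.27 (SE 0.09) did not pass the test (limma, adjusted p = 0.99).

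The next genes on that side, *Zfp644*, also a zinc finger gene, and *Cdc7*, a kinase that starts DNA replication, had log2 differences of 0.01 (SE 0.24) and -0.22 (SE 0.13). On the other side of the run, *Gbp9*, of the interferon-induced guanylate-binding proteins, had a log2 difference of -0.06 (SE 0.14) and the zinc finger gene *Zfp951* of 0.01 (SE 0.10). *Gbp4*, a further guanylate-binding protein gene, was at 0.136 to 0.444 FPKM in HuD KOs and at 0.306 to 0.726 FPKM in controls and did not pass the low-value filter. Of 23 other listed genes within 2 megabases, 22 were tested, 0 passed the adjusted threshold in limma and 1, *Zfp326*, had an unadjusted p below 0.05, which is 4.55% of them and near the 3.43% of all genes. Their median log2 difference was -0.05, against -0.02 over all genes tested.

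**Figure D3:**
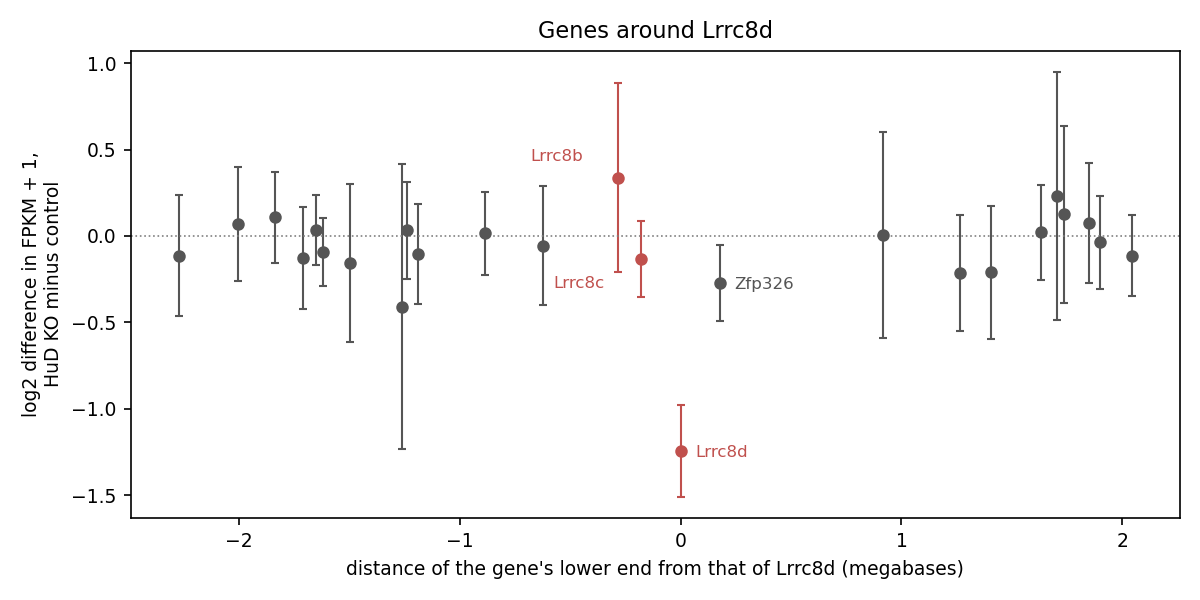
Log2 difference in FPKM + 1, HuD KO (n = 2) minus control (n = 3), of the genes around *Lrrc8d* (vertical axis, with 95% intervals), against the distance of each gene's lower end from that of *Lrrc8d* in megabases (horizontal axis), with the LRRC8 genes in red. *Lrrc8d* stands at -1.24 and *Zfp326* beside it at -0.27.

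Other genes that handle chloride, volume and the solutes of the channel were read from 5 lists of 89 genes in all, 68 of them in the table and 67 tested. Over 5 libraries 0 of the 67 passed the adjusted threshold in limma, and 3 had an unadjusted p below 0.05, which is 4.48% of them and near the 3.43% of all genes. Their median log2 difference was -0.02, as it was over all genes, with 40 genes negative and 27 positive. Over 6 libraries again 0 passed. Every HuD KO library was below every control library for 4 of the 67, *Wnk1*, *Slc6a13*, *Gjb2* and *Gjd2*, which is 5.97% of them against 5.7% of all genes, and above every control for 2, *Wnk2* and *Sgk1*, which is 2.99% against 4.43% of all genes. These genes were named after their values were seen.

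Of the chloride and other anion channels 18 were tested, with 0 passing and a median log2 difference of -0.02. The most abundant were *Ttyh1* and *Ttyh3*, of the tweety family, with log2 differences of -0.05 (SE 0.07) and 0.04 (SE 0.07), and *Mlc1*, an astrocyte membrane protein that regulates the volume-activated current, with -0.15 (SE 0.10). *Ano3*, of the anoctamin family and named after its values were seen, had 33.9, 17.8 and 27.5 FPKM in HuD KO replicates 1, 2 and 3, against 19.9, 21.4 and 20.6 FPKM in control replicates 1, 2 and 3. Its log2 difference was 0.54 (SE 0.11) over 5 libraries and 0.30 (SE 0.22) over 6. It is among the genes counted above with an unadjusted p below 0.05 over 5 libraries, but did not pass the test (limma, adjusted p = 0.99). HuD KO replicates 1 and 3 lay above every control, and the excluded HuD KO replicate 2 below every control.

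Of the cation-chloride cotransporters and their WNK-SPAK/OSR1 kinases 13 were tested, with 0 passing and a median of 0.03. *Slc12a5*, the neuronal chloride extruder KCC2, had a log2 difference of 0.03 (SE 0.10). *Wnk1*, a kinase upstream of SPAK and OSR1, had 6.90, 6.13 and 6.76 FPKM in HuD KO replicates 1, 2 and 3, against 8.92, 7.01 and 8.40 FPKM in control replicates 1, 2 and 3. *Stk39*, the kinase SPAK, and *Cab39*, its activator MO25, had 0.08 (SE 0.09) and 0.07 (SE 0.08). The osmolyte, water and osmotic response genes gave 0 of 11 with a median of 0.00, and their leading members were *Slc38a2*, an amino acid transporter induced by osmotic stress, at -0.16 (SE 0.09), the water channel *Aqp4* at -0.14 (SE 0.20) and the taurine transporter *Slc6a6* at 0.11 (SE 0.12).

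Of the genes that handle amino acids and cGAMP, solutes of LRRC8 channels, 12 were tested, with 0 passing and a median of -0.10. The glutamate transporters *Slc1a2* and *Slc1a3* had log2 differences of -0.05 (SE 0.12) and -0.10 (SE 0.08), and *Glul*, which makes glutamine from glutamate, had -0.07 (SE 0.09). *Slc6a13*, a GABA and taurine transporter of the meninges and vessels, had 2.58, 1.69 and 2.31 FPKM in HuD KO replicates 1, 2 and 3, against 3.69, 3.25 and 5.05 FPKM in control replicates 1, 2 and 3. The pannexins, connexins and CALHM channels, other large-pore channels, gave 0 of 13 with a median of -0.03. *Gja1* and *Gjb6*, the astrocyte connexins, had log2 differences of 0.20 (SE 0.10) and -0.29 (SE 0.13), and *Panx2*, a pannexin of neurons, had -0.01 (SE 0.13). *Gjb2*, a connexin also made by meningeal cells, had 3.85, 2.14 and 3.83 FPKM in HuD KO replicates 1, 2 and 3, against 4.78, 5.62 and 4.99 FPKM in control replicates 1, 2 and 3. *Gjd2*, a connexin of neurons, had 2.05, 1.74 and 1.97 FPKM in HuD KO replicates 1, 2 and 3, against 3.16, 2.11 and 2.61 FPKM in control replicates 1, 2 and 3. The part of the meningeal cells, whose markers are given above, in the values of *Slc6a13* and *Gjb2* was not tested.

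**Figure D4:**
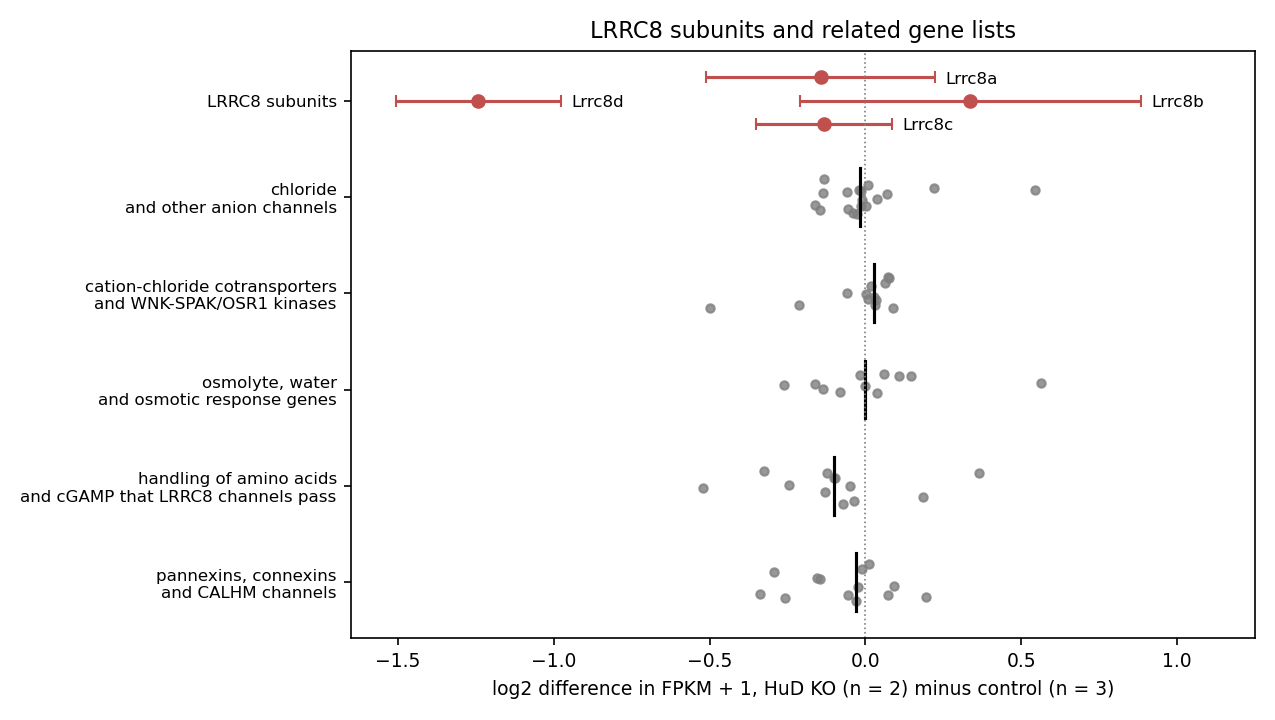
Log2 difference in FPKM + 1, HuD KO (n = 2) minus control (n = 3), of the 4 LRRC8 subunits (red, with 95% intervals) and of the genes of 5 related lists (grey points, 1 per gene, with a black line at the list's median). The medians of the lists lie between -0.10 and 0.03, and *Lrrc8d* at -1.24 lies to the left of every gene plotted. As *Lrrc8d* was selected on this contrast, its place there is only a description.

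The genes most like each subunit were looked for by Pearson's r of log2(FPKM + 1) over the 6 libraries, among genes averaging 1 FPKM or more. The points share libraries and 2 genotypes, so r describes these libraries and carries no test. As the genes were picked by r, a pattern of values that they share with the subunit follows from that choice. The nearest to *Lrrc8d* were *Ankrd34b* (r = 0.979), *Akap12*, a kinase-anchoring scaffold (r = 0.978), *Icmt*, the methyltransferase of prenylated proteins (r = 0.974), *Lgi2*, a secreted leucine-rich repeat protein (r = 0.968), and *Ndor1*, a flavin oxidoreductase (r = 0.965). *Icmt* had 8.22, 9.47 and 7.59 FPKM in HuD KO replicates 1, 2 and 3, against 13.4, 16.1 and 14.1 FPKM in control replicates 1, 2 and 3, with HuD KO replicate 2 the highest of its group as for *Lrrc8d*.

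The nearest to *Lrrc8b* were the potassium channel gene *Kcnq5* (r = 0.998), the zinc finger gene *Rlf* (r = 0.990) and *Cacna2d3*, a calcium channel auxiliary subunit (r = 0.990). *Kcnq5* had 17.0, 12.9 and 17.0 FPKM in HuD KO replicates 1, 2 and 3, against 15.4, 16.1 and 10.2 FPKM in control replicates 1, 2 and 3, and so was also lowest in control replicate 3. The nearest to *Lrrc8a* were *Sec23ip* (r = 0.988), *Poc5* (r = 0.960) and *Mxra8* (r = 0.960), and to *Lrrc8c* *1810009A15Rik* (r = 0.993), *Timm21* (r = 0.990) and *Afap1l2* (r = 0.986). No subunit was among the nearest of another. Over the 6 pairs of subunits r was 0.51 for *Lrrc8a* with *Lrrc8d*, 0.50 for *Lrrc8c* with *Lrrc8d*, 0.02 for *Lrrc8a* with *Lrrc8c*, -0.01 for *Lrrc8b* with *Lrrc8c*, -0.54 for *Lrrc8b* with *Lrrc8d* and -0.59 for *Lrrc8a* with *Lrrc8b*.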

How the data were processed

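The authors trimmed paired-end reads of dUTP libraries and aligned them to mm10 with STAR 2.7.3a, and deposited FPKM per protein-coding gene and library. No source used here names the program that gave FPKM. Every listed gene has a mean of at least 0.5 FPKM in a genotype. The authors' own columns of fold changes, p-values and q-values were not used. Low FPKM values were not whole multiples of a common step (at most 20% within 0.05 of one), so the depth per library is unknown and no count test was run. log2(FPKM + 1) was fitted, for genes averaging 0.5 FPKM or more over the fitted libraries, with limma 3.58.1 (lmFit, eBayes with a trend) in R 4.3.3, after tests on simulated data. Per the study's methods each library is 1 mouse. Sequences come from GENCODE M21. The genes named were the members, the 3 most abundant genes of each list, the 3 nearest genes on each side, the genes most like each member, and *Elavl4*, and *Ano3*, *Wnk1*, *Wnk2*, *Sgk1*, *Slc6a13*, *Gjb2* and *Gjd2* were added after their values were seen. The members and lists were chosen with earlier results of these data known. Same-numbered libraries were not treated as pairs, as the correlations of their deviations were not all above 0.1. With 3 libraries per group this check cannot show that no pairing existed.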

Additional observations from a re-analysis of the deposited data

How the results depend on the processing

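*Lrrc8a*, *Lrrc8c* and *Lrrc8d* kept a negative and *Lrrc8b* a positive log2 difference in all 13 alternatives. *Lrrc8d* moved by more than the spread between replicates to -1.03 with all 6 libraries and to -1.96 with a pseudocount of 0.1, which weighs low values more. *Lrrc8c* moved to -0.20 with all 6 libraries. Leaving out each library in turn gave -0.28 to -0.01 for *Lrrc8a*, 0.12 to 0.47 for *Lrrc8b*, -0.16 to -0.10 for *Lrrc8c* and -1.31 to -1.20 for *Lrrc8d*. The value of *Lrrc8a* was -0.01 without HuD KO replicate 3 and -0.07 without control replicate 3, and that of *Lrrc8b* 0.12 without control replicate 3. The number of genes called was 6, and 2 with a pseudocount of 0.1, with a range of 2 to 11 when each library was left out: 2 without HuD KO replicate 1, 2 without control replicate 1 and 11 without control replicate 3.

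With the replicate block over all 6 libraries the differences were -1.03 for *Lrrc8d* and -0.20 for *Lrrc8c*, and 3 genes were called, and with the block over 5 libraries 3 genes were called. The correlations of same-numbered libraries were -0.12, 0.18 and 0.04. These few values cannot show whether the numbers pair the mice, and the main fit used genotype only.

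*Lrrc8b* exceeded *Lrrc8a* by 2.20 to 2.47 and *Lrrc8c* exceeded *Lrrc8d* by 1.20 to 1.63 on the log2 scale when each of the 6 libraries was left out. The exact test on 5 libraries cannot go below a p of 0.0625. Depth is unknown, and the low FPKM of *Lrrc8d* in HuD KOs carries a counting error that could not be computed.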
